A study of Homo sapiens with 6 samples.

Results

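The genes described here are 52 that build, fill and control the lysosome, the acidic compartment in which cells take macromolecules apart. They were taken by symbol from a count table of 61852 genes measured in MEG-01, an established human megakaryoblastic leukaemia line, and all 52 were found. They comprise 16 genes of the vacuolar proton pump (V-ATPase), 26 soluble hydrolases and their activators, 5 membrane proteins, 2 mannose 6-phosphate receptors and 3 transcription factors of the MiT/TFE family. The data were 3 libraries of MEG-01 cells transduced with the hairpin sh2-MELK (knockdown) and 3 libraries of MEG-01 cells transduced with the pLKO.1 control vector (control). All 6 libraries carry the batch label F5, and no further allele or agent is labelled. The knockdown rests on 1 hairpin, and the control is a vector rather than a second hairpin. MELK, the targeted gene, is a serine/threonine kinase of proliferating cells, and the series title places the comparison in platelet formation and ERK and cofilin signalling.

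The V-ATPase acidifies the lysosome. Its V1 sector sits in the cytosol and hydrolyses ATP, and its V0 sector lies in the membrane and carries the protons. Most soluble hydrolases receive a mannose 6-phosphate tag in the Golgi, and receptors for that tag carry them to the endosome. TFEB, TFE3 and MITF bind a short promoter element, named CLEAR, that many lysosomal genes share. Megakaryocytes pass lysosomes on to platelets, which release hydrolases from them on activation.

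The libraries held between 18945176 and 21711313 counts. Each value seems to be a read count to which 0, 1, 2, 10 or 100 was added, since 35797 genes (57.9%) held nothing but these 5 numbers. No gene of the 52 was of that kind, but 14 averaged below 500 counts, where the added number weighs most. MELK (ENSG00000165304) had counts of 16, 124 and 26 in the knockdown libraries and 219, 206 and 238 in the control libraries. Its groups did not overlap, with a log2 fold change of -1.98 (SE 0.67). With all 6 libraries MELK did not pass (edgeR's quasi-likelihood test, adjusted p = 0.104). Without knockdown library 2 its log2 fold change was -3.32 (adjusted p = 0.00271). With the added number modelled as part of each value, it was -3.39 (interval -3.88 to -2.97). The estimated reads of MELK were then 20.5 in the knockdown and 215 in the control. That model, described below, gives every gene the same dispersion, so its interval may be too narrow. MEG-01 is labelled a megakaryoblast, and its megakaryocyte markers were present, with ITGA2B at 1061 CPM (counts scaled by TMM to a common library size) in the knockdown and 2024 CPM in the control.

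Of the 52 genes, 36 (69.2%) passed the test at an adjusted p below 0.05, against 16.5% of the 28303 genes tested. The pump, the receptors and the membrane proteins lay mostly on the higher side, and the hydrolases mostly on the lower side. 19 genes rose (8.12% of all genes tested) and 17 fell (8.43% of all genes tested). The median log2 fold change of the 52 was 0.08, and that of all genes tested was 0.02. Of the 28303 genes tested, 8895 held nothing but the added numbers, and none of the 52 was of that kind. Shares of all genes tested, here and beside the lists below, include these genes and may be lowered by them. Shares among genes averaging 500 counts or more do not include them. Depth matters for these shares: among genes averaging 500 counts or more, 31 of 38 lysosomal genes (81.6%) passed, against 68% of 5038 genes. At that depth 18 rose (47.4%, against 32.5%) and 13 fell (34.2%, against 35.5%). The knockdown and control libraries did not overlap in 34 of the 38 (89.5%), against 79.2% of all genes of that depth. The changes were moderate, since at that depth the median absolute log2 fold change of genes that passed was 0.51 both for the lysosomal genes and for all genes. In bulk libraries such as these, fewer cells of a type and less RNA per cell cannot be told apart.

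**Figure D1:**
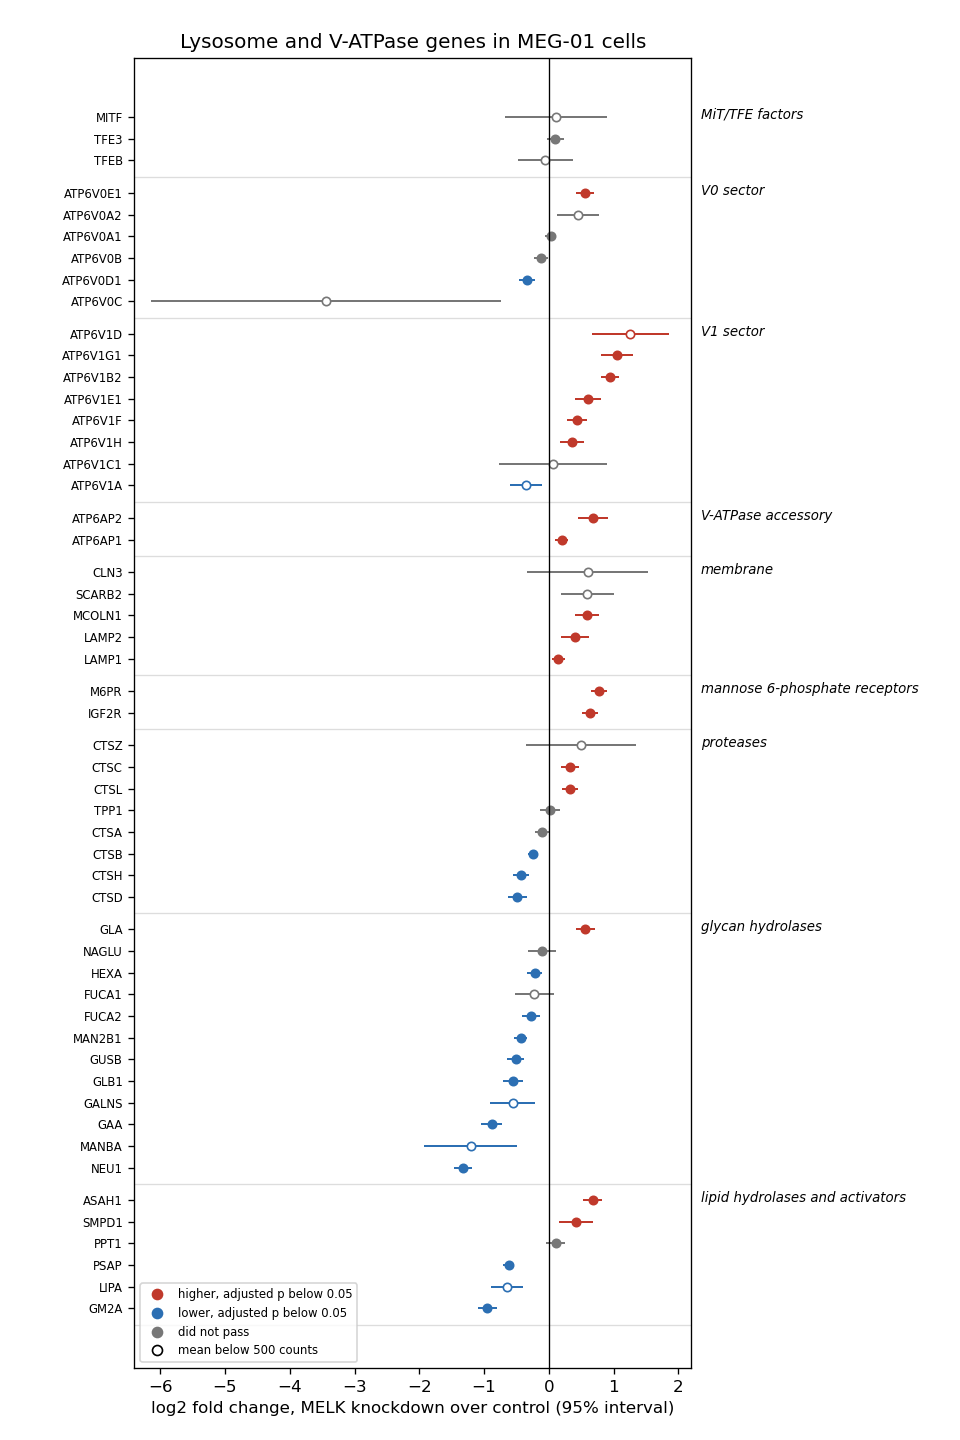
Each of the 52 genes is drawn with its log2 fold change, MELK knockdown over control (x axis), and its 95% interval from 3 libraries a group, in blocks by role. Red genes rose, blue genes fell and grey genes did not pass; open circles have a mean below 500 counts. The V1 block lies mostly to the right of 0 and the glycan hydrolase block mostly to the left.

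The transcription factors come first, because they bind the promoters of many of the other genes. None of the 3 passed edgeR's test, either adjusted or at an unadjusted p below 0.05 (0 of 3), and 0 passed with DESeq2 or limma-voom. TFEB (ENSG00000112561, GRCh38 chr6:41683978-41736259, - strand), the member best known for driving lysosomal genes, had 9.13, 9.74 and 9.17 CPM in the knockdown libraries and 9.65, 9.09 and 10.34 CPM in the control libraries. Its groups overlapped, and the log2 fold change of -0.05 (SE 0.18, adjusted p = 0.969) had a 95% interval from -0.46 to 0.36. TFE3, its close relative, stood at 86.42, 93.81 and 88.34 CPM in the knockdown libraries, against 86.80, 82.65 and 80.56 CPM in the control libraries. Knockdown library 1 lay below control library 1, so the groups overlapped here too, with a log2 fold change of 0.10 (SE 0.05, adjusted p = 0.256). TFE3 passed under other settings: the log2 fold change was 0.33 (adjusted p = 1.12e-05) once trends with GC content and transcript length were taken out of each library (GC and length offsets), and 0.18 (adjusted p = 0.0315) with scaling by library size alone. MITF, the founding member of the family, had 161, 175 and 117 counts in the knockdown libraries and 188, 84 and 159 counts in the control libraries. These values overlapped widely, with a log2 fold change of 0.11 (SE 0.34, adjusted p = 0.941), and its direction turned to -0.14 without control library 2. Per kilobase of transcript, TFE3 was the most abundant of the family at 26.2 CPM per kb in the knockdown and 24.4 CPM per kb in the control, against 3.60 and 3.74 for TFEB and 1.6 and 1.48 for MITF.

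Promoters of 40 of the 52 genes were searched in RefSeq (GRCh38.p14), from 250 bases upstream to 50 bases downstream of each start site, on both strands. CACGTG, the core of the CLEAR element, was in 13 of the 40 (32.5%), against 8.77% of 27305 genes and 14.9% of 4137 genes averaging 500 counts or more. The longer TCACGTGA, which contains CACGTG, was in 9 of the 40 (22.5%), against 1.18% and 2.61% of the same sets. Many lysosomal genes share the CLEAR element, and these 40 were chosen as lysosomal genes. The raised shares are therefore no result of the knockdown. Both directions of change were found among the genes that hold the longer word: TCACGTGA was in 4 of 14 genes that rose, 3 of 12 that fell and 2 of 14 that did not pass, and CACGTG in 5, 5 and 3 of them. The 9 genes were ATP6V1G1, IGF2R, LAMP1 and MCOLN1, which rose, ATP6V0D1, GAA and GALNS, which fell, and CLN3 and CTSA, which did not pass. NEU1, which had the largest decrease of the genes that passed, held CACGTG without the longer word. The sequences below are shown because genes with the same element moved in opposite directions. Each is given 5′ to 3′ on the gene's strand, with the matched element in capitals and the flanks in lower case.
ATP6V1G1, rose, chr9:114587689-114587738, + strand: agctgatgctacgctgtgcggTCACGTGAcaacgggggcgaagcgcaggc
IGF2R, rose, chr6:159968928-159968977, + strand: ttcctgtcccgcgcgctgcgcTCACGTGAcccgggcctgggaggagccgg
MCOLN1, rose, chr19:7522561-7522610, + strand: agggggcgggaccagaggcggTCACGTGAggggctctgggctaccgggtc
LAMP1, rose, chr13:113297189-113297238, + strand: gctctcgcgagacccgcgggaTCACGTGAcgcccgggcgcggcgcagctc
GAA, fell, chr17:80101483-80101532, + strand: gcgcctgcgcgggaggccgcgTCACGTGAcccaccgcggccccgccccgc
GALNS, fell, chr16:88857094-88857143, - strand: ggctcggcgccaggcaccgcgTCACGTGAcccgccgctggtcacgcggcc
NEU1, fell, chr6:31862921-31862968, - strand: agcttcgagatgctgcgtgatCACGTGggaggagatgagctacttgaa
The elements begin 59, 133, 42, 29, 77, 175 and 126 bases upstream of the start sites in that order. IGF2R held 3 copies of TCACGTGA in its window, and LAMP1, MCOLN1 and GAA held 2 copies each. A match is a stretch of letters and not a measured binding site.

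The V1 sector, the ATP-hydrolysing head of the pump, rose in most of its subunits. Of its 8 genes 6 rose, ATP6V1A fell and ATP6V1C1 did not pass, and the median log2 fold change was 0.52. All 5 that averaged 500 counts or more rose, where 32.5% of genes of that depth did. The summed level of all 8 V1 genes was 632.1 ± 27.3 CPM in the knockdown and 408.7 ± 6.63 CPM in the control (SD, n = 3 each), a ratio of 1.55.

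ATP6V1B2, the ATP-binding B subunit, had 172.7, 181.0 and 179.2 CPM in the knockdown libraries and 86.36, 99.93 and 91.24 CPM in the control libraries. Every knockdown library was well above every control library, with a 1.92-fold difference (log2 fold change 0.94, SE 0.06, adjusted p = 8.17e-06), and 0.69 with GC and length offsets. ATP6V1G1 (ENSG00000136888, GRCh38 chr9:114587746-114598373, + strand), a subunit of the stalk that holds head and membrane sector together, had 73.48, 81.59 and 91.09 CPM in the knockdown libraries and 36.49, 37.48 and 44.69 CPM in the control libraries. The groups lay far apart, and the difference was 2.07-fold (log2 fold change 1.05, SE 0.10, adjusted p = 0.000135). GC and length offsets took the log2 fold change of ATP6V1G1 to 0.73. ATP6V1D, part of the rotating central shaft, had 13.14, 21.17 and 15.16 CPM in the knockdown libraries and 8.96, 5.40 and 6.25 CPM in the control libraries. Its groups did not overlap but its values were low and spread, with knockdown library 2 highest (log2 fold change 1.26, SE 0.25, adjusted p = 0.00951). The call on ATP6V1D was lost without knockdown library 2, control library 2 or control library 3, at adjusted p between 0.0509 and 0.0597, and 6.33% of its exon bases overlap EIF2S1 on the other strand, whose mean was 1011 counts in the knockdown and 460 counts in the control.

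Of the more moderate V1 subunits, ATP6V1F, also of the central shaft, stood highest, at 207.0, 229.1 and 209.3 CPM in the knockdown libraries and 161.9, 147.4 and 169.0 CPM in the control libraries. The groups did not overlap (log2 fold change 0.43, SE 0.06, adjusted p = 0.00116), though 23.7% of its exon bases overlap KCP on the other strand, with means of 607.3 counts in the knockdown and 373 counts in the control. ATP6V1E1, the partner of the G subunit in the stalk, had 64.04, 71.35 and 77.21 CPM in the knockdown libraries and 43.35, 49.06 and 47.04 CPM in the control libraries. It too was higher in every knockdown library (log2 fold change 0.61, SE 0.08, adjusted p = 0.000762), and 0.40 with GC and length offsets. ATP6V1H, a regulatory subunit, had 49.02, 48.00 and 43.08 CPM in the knockdown libraries and 39.04, 35.67 and 34.69 CPM in the control libraries. The gap between its groups was narrower (log2 fold change 0.36, SE 0.07, adjusted p = 0.0111), and the call was lost with GC and length offsets (0.17, adjusted p = 0.0821) and without knockdown library 1 or 2 or control library 2 or 3 (adjusted p between 0.0558 and 0.0602). ATP6V1A, the catalytic A subunit that pairs with ATP6V1B2 in the head, went the other way. It had 16.14, 15.65 and 15.58 CPM in the knockdown libraries and 20.43, 20.66 and 19.32 CPM in the control libraries, 318, 315 and 294 counts against 417, 398 and 396 counts. Its groups did not overlap (log2 fold change -0.35, SE 0.10, adjusted p = 0.0486), but leaving out any of the 6 libraries lost the call, at adjusted p between 0.0772 and 0.113.

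The V0 sector, the membrane ring that carries protons, did not share this shift. Of its 6 genes ATP6V0E1 rose, ATP6V0D1 fell and 4 did not pass, with a median log2 fold change of -0.04. Of the 4 that averaged 500 counts or more 1 rose and 1 fell (32.5% and 35.5% of genes of that depth). The summed V0 level was 965.9 ± 23.0 CPM in the knockdown and 936.2 ± 13.9 CPM in the control (SD, n = 3 each), a ratio of 1.03. ATP6V0E1, a small ring-associated subunit, had 221.6, 236.3 and 232.3 CPM in the knockdown libraries and 145.2, 158.8 and 165.4 CPM in the control libraries. The groups were well separated (log2 fold change 0.56, SE 0.05, adjusted p = 0.000117), and with GC and length offsets the difference shrank to 0.27 (adjusted p = 2.22e-06). ATP6V0D1, which couples the ring to the central shaft, averaged 99.95 ± 5.61 CPM in the knockdown and 125.6 ± 1.99 CPM in the control (SD, n = 3 each; log2 fold change -0.33, SE 0.05, adjusted p = 0.0013), and -0.17 with those offsets.

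ATP6V0A1, the a1 isoform of the subunit that holds the proton channels, had 288.2, 296.2 and 281.5 CPM in the knockdown libraries and 283.1, 279.1 and 283.7 CPM in the control libraries. The groups overlapped, and the 95% interval of its log2 fold change of 0.03 (SE 0.03, adjusted p = 0.597) ran from -0.04 to 0.10. ATP6V0B, a proton-binding ring subunit, had 307.8, 328.2 and 319.0 CPM in the knockdown libraries and 357.3, 331.5 and 349.7 CPM in the control libraries. Knockdown library 2 came close to control library 2 without overlap, and the log2 fold change of -0.12 (SE 0.04, adjusted p = 0.0783) did not pass, though it did in 8 of 19 alternative settings. ATP6V0A2, an isoform of Golgi and endosomes, averaged 28.44 ± 4.8 CPM in the knockdown and 20.81 ± 2.23 CPM in the control (SD, n = 3 each; log2 fold change 0.45, SE 0.14, adjusted p = 0.0626), and passed in 4 of 16 alternatives. Per kilobase of transcript ATP6V1F and ATP6V0B stood highest among the pump genes, at 303 ± 17.1 and 189 ± 6.08 CPM per kb in the knockdown, against 224 ± 15.5 and 205 ± 7.86 CPM per kb in the control (SD, n = 3 each).

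ATP6V0C, the main proton-binding ring subunit, is described although it falls outside the rule for naming genes and was picked after its values were seen. It had 9, 13 and 6 counts in the knockdown libraries and 103, 103 and 106 counts in the control libraries. The control values sit just above 100, a number of the kind that the table seems to add, and with that number modelled the estimated reads were 7.94 (95% interval 3.27 to 12.2) in the knockdown and 3.94 (2.11 to 111) in the control. The log2 fold change of -3.44 (SE 1.17, adjusted p = 0.127) did not pass and became 1.01 with an interval from -4.75 to 2.12 in that model, so no direction can be given. Of its exon bases, 57.5% are shared with a read-through gene on the same strand, and pseudogene copies exist, so its reads may be counted elsewhere.

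Both accessory proteins of the pump rose. ATP6AP1, which helps to assemble the pump, had 251.5, 255.2 and 250.8 CPM in the knockdown libraries and 227.9, 211.1 and 220.1 CPM in the control libraries. The difference was small but exceeded the spread of each group (log2 fold change 0.20, SE 0.04, adjusted p = 0.00458). ATP6AP2, also known as the prorenin receptor, had 32.88, 36.92 and 36.56 CPM in the knockdown libraries and 20.08, 22.06 and 24.15 CPM in the control libraries. The groups did not overlap (log2 fold change 0.68, SE 0.09, adjusted p = 0.00101), and GC and length offsets took the difference to 0.28 (adjusted p = 0.0168). Summed over all 16 pump genes, the level was 1886 ± 53.1 CPM in the knockdown and 1587 ± 26.0 CPM in the control (SD, n = 3 each).

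Both mannose 6-phosphate receptors rose. IGF2R (ENSG00000197081, GRCh38 chr6:159969099-160113507, + strand), the large cation-independent receptor, had 453.7, 434.8 and 416.8 CPM in the knockdown libraries and 272.6, 298.8 and 269.8 CPM in the control libraries. The lowest knockdown library was far above the highest control library, a 1.55-fold difference of the means (log2 fold change 0.63, SE 0.05, adjusted p = 3.68e-05). M6PR (ENSG00000003056, chr12:8940363-8949955, - strand), the small cation-dependent receptor, had 228.4, 232.0 and 228.7 CPM in the knockdown libraries and 124.7, 135.7 and 141.4 CPM in the control libraries. The knockdown libraries lay within a narrow band, 1.72-fold above the control (log2 fold change 0.78, SE 0.05, adjusted p = 1.02e-05). PHC1 overlaps 29.3% of the M6PR exon bases on the other strand, with means of 659 counts in the knockdown and 817.7 counts in the control. Both receptors kept their direction and call with GC and length offsets, at 0.68 for IGF2R and 0.58 for M6PR.

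Of the 5 membrane proteins 3 rose and 2 did not pass, with a median log2 fold change of 0.59. The 3 that rose were the 3 averaging 500 counts or more, a depth at which 32.5% of genes rose. MCOLN1, a calcium channel of the lysosomal membrane, had 52.52, 53.42 and 55.17 CPM in the knockdown libraries and 39.73, 33.33 and 34.25 CPM in the control libraries. The groups did not overlap (log2 fold change 0.59, SE 0.08, adjusted p = 0.000718), and the difference was 0.83 with GC and length offsets. LAMP1, a main glycoprotein of the lysosomal membrane, had 266.9, 270.2 and 261.2 CPM in the knockdown libraries and 231.6, 239.6 and 249.5 CPM in the control libraries. Its rise was the smallest of the genes that passed (log2 fold change 0.15, SE 0.04, adjusted p = 0.024), and it was lost when any library except control library 3 was left out, at adjusted p between 0.0521 and 0.0986. LAMP2, its partner and a receptor of chaperone-mediated autophagy, had 50.39, 53.71 and 47.91 CPM in the knockdown libraries and 35.51, 36.34 and 42.79 CPM in the control libraries. The log2 fold change of 0.41 (SE 0.08, adjusted p = 0.0107) turned to -0.05 (adjusted p = 0.571) with GC and length offsets, and the call was also lost without knockdown library 1 or 2 or control library 1 or 2 (adjusted p between 0.0551 and 0.0655). SCARB2, a membrane protein that carries cargo to the lysosome, averaged 23.60 ± 0.628 CPM in the knockdown and 15.61 ± 3.96 CPM in the control (SD, n = 3 each). It missed the threshold (log2 fold change 0.60, SE 0.17, adjusted p = 0.0503) but passed in 9 of 16 alternatives, among them DESeq2 (adjusted p = 0.000712), limma-voom (adjusted p = 0.0484) and the fit without control library 2 (0.82, adjusted p = 0.00286). CLN3, a membrane protein mutated in juvenile Batten disease, did not pass (log2 fold change 0.60, SE 0.40, adjusted p = 0.424).

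**Figure D2:**
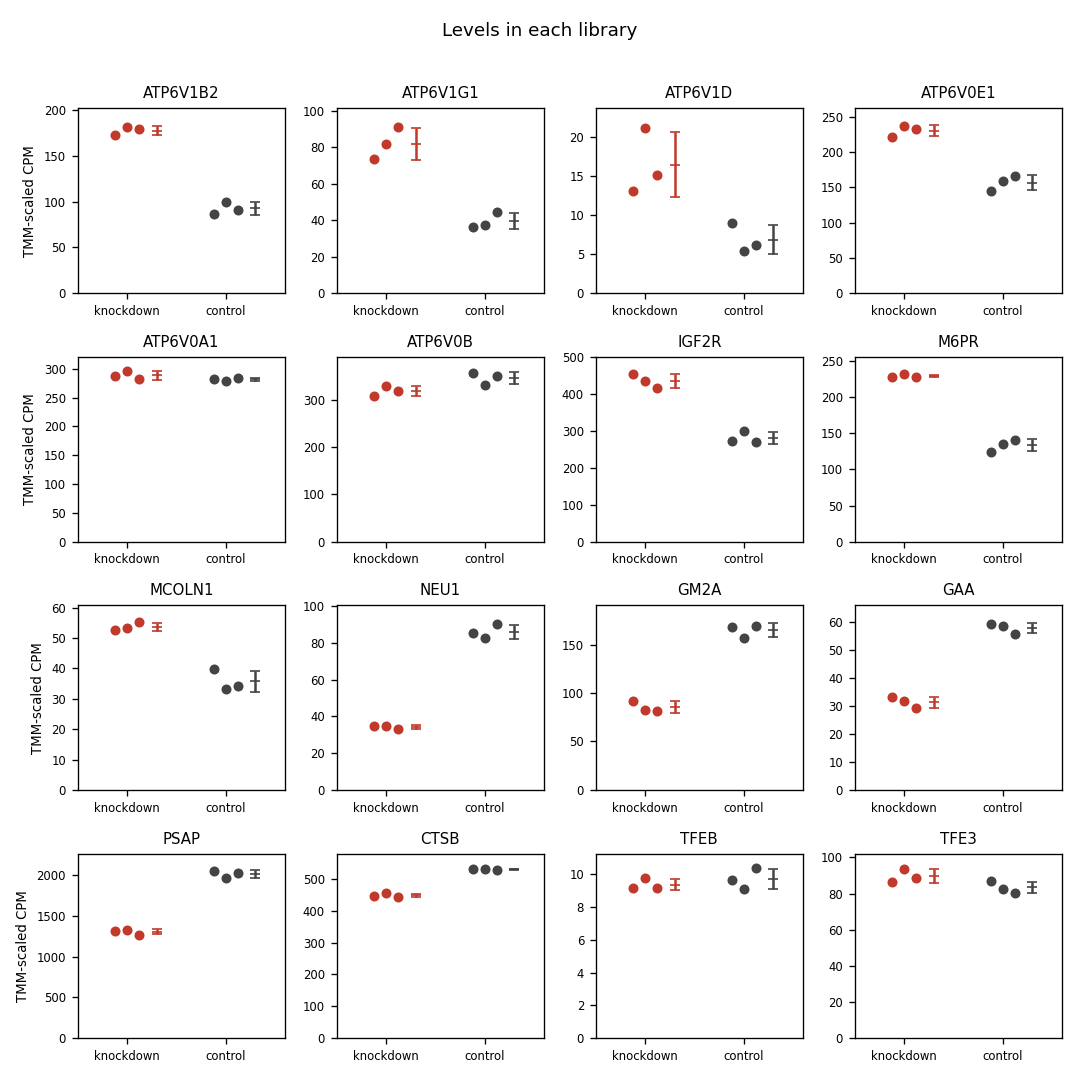
Each panel shows 1 gene, with a point for each of the 3 knockdown libraries (red, left) and the 3 control libraries (grey, right) in TMM-scaled CPM from 0, and a bar for the mean ± SD of the group. The red points of ATP6V1B2 and M6PR lie above all grey points, those of NEU1, GM2A and PSAP lie below, and the points of TFEB and ATP6V0A1 overlap.

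The proteases were divided. Of 8 genes 2 rose, 3 fell and 3 did not pass, and the median log2 fold change was -0.04. At a depth of 500 counts or more 2 of 7 rose (32.5% of genes) and 3 fell (35.5% of genes). CTSB, a cysteine protease, had 445.0, 454.1 and 444.0 CPM in the knockdown libraries and 529.5, 530.8 and 527.0 CPM in the control libraries. It fell by little but with almost no spread (log2 fold change -0.24, SE 0.03, adjusted p = 0.00016). CTSH, an aminopeptidase, had 145.4, 160.8 and 157.1 CPM in the knockdown libraries and 212.8, 200.1 and 210.5 CPM in the control libraries, again without overlap (log2 fold change -0.43, SE 0.05, adjusted p = 0.000266). CTSD, the main aspartic protease, averaged 62.60 ± 3.30 CPM in the knockdown and 87.77 ± 4.50 CPM in the control (SD, n = 3 each; log2 fold change -0.49, SE 0.06, adjusted p = 0.000415), and -0.19 with GC and length offsets. CTSL, a cysteine protease like CTSB, went the other way at 279.4, 280.0 and 282.2 CPM in the knockdown libraries and 208.1, 237.8 and 224.4 CPM in the control libraries. The knockdown libraries were nearly alike and above the control (log2 fold change 0.33, SE 0.05, adjusted p = 0.00146). CTSC, which activates the granule proteases of blood cells, rose as deposited (log2 fold change 0.33, SE 0.06, adjusted p = 0.00306) but turned to -0.08 (adjusted p = 0.111) with GC and length offsets. CTSA, which protects NEU1 and GLB1 in a complex, had a log2 fold change of -0.10 (adjusted p = 0.134), TPP1, a tripeptidyl peptidase, 0.02 (adjusted p = 0.944) and CTSZ, a carboxypeptidase, 0.50 (adjusted p = 0.478), and none of the 3 passed.

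The glycan hydrolases, which remove sugars from glycoproteins, glycolipids and glycogen, fell most uniformly. Of 12 genes 9 fell, GLA rose and 2 did not pass, with a median log2 fold change of -0.47. Of those averaging 500 counts or more 7 of 9 fell, where 35.5% of genes of that depth did. The summed level of all 12 glycan hydrolases was 633.9 ± 5.98 CPM in the knockdown and 824.4 ± 15.9 CPM in the control (SD, n = 3 each), a ratio of 0.769.

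NEU1 (ENSG00000204386, GRCh38 chr6:31857659-31862906, - strand), the lysosomal sialidase, had 34.96, 35.03 and 33.07 CPM in the knockdown libraries and 85.38, 82.49 and 90.27 CPM in the control libraries. The knockdown level was 0.399 of the control level, with groups far apart (log2 fold change -1.32, SE 0.05, adjusted p = 1.20e-06), and -1.24 with GC and length offsets. GAA, which degrades glycogen, had 33.24, 31.60 and 29.25 CPM in the knockdown libraries and 59.12, 58.51 and 55.82 CPM in the control libraries. Every knockdown library was below every control library (log2 fold change -0.88, SE 0.06, adjusted p = 2.59e-05), and the offsets took the difference to -0.57. MANBA, a beta-mannosidase, had 76, 84 and 78 counts in the knockdown libraries and 159, 154 and 253 counts in the control libraries. Control library 3 stood above the rest (log2 fold change -1.21, SE 0.31, adjusted p = 0.0283), and the call was lost whichever of the 6 libraries was left out, at adjusted p between 0.0702 and 0.266.

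MAN2B1, the alpha-mannosidase, had 105.6, 104.5 and 102.0 CPM in the knockdown libraries and 143.3, 138.1 and 140.1 CPM in the control libraries. It was tight in both groups (log2 fold change -0.43, SE 0.04, adjusted p = 3.72e-05), and -0.18 with GC and length offsets. GUSB, a beta-glucuronidase, had 73.58, 73.54 and 78.75 CPM in the knockdown libraries and 101.5, 108.6 and 112.3 CPM in the control libraries. The groups were clearly apart (log2 fold change -0.51, SE 0.05, adjusted p = 0.000173). HEXA, the alpha subunit of beta-hexosaminidase, had 115.2, 106.4 and 111.1 CPM in the knockdown libraries and 129.7, 124.7 and 132.4 CPM in the control libraries. Its decrease was the smallest of the sugar hydrolases that fell (log2 fold change -0.22, SE 0.04, adjusted p = 0.00827), and it was lost without control library 1 (adjusted p = 0.0576) or control library 3 (adjusted p = 0.0709). GLB1, the beta-galactosidase, fell with a log2 fold change of -0.55 (SE 0.06, adjusted p = 0.00032), FUCA2, a fucosidase, of -0.28 (SE 0.06, adjusted p = 0.00915; -0.58 with GC and length offsets) and GALNS, a sulfatase, of -0.56 (SE 0.14, adjusted p = 0.0291). The call on GALNS was lost when any library except control library 2 was left out, at adjusted p between 0.072 and 0.12. GLA, the alpha-galactosidase deficient in Fabry disease, rose, at 94.45 ± 6.39 CPM in the knockdown and 63.97 ± 2.08 CPM in the control (SD, n = 3 each; log2 fold change 0.56, SE 0.06, adjusted p = 0.000199). NAGLU, of heparan sulfate breakdown, and FUCA1, the main fucosidase, did not pass, with log2 fold changes of -0.10 (adjusted p = 0.575) and -0.22 (adjusted p = 0.34).

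Lipid hydrolases and their activators held both directions, and the most abundant lysosomal gene lay here. Of 6 genes 2 rose, 3 fell and PPT1 did not pass. Among the 5 averaging 500 counts or more 2 rose (32.5% of genes) and 2 fell (35.5% of genes). PSAP (ENSG00000197746, GRCh38 chr10:71816298-71851375, - strand), the precursor of the saposins that present sphingolipids to their hydrolases, had 1317, 1328 and 1270 CPM in the knockdown libraries and 2048, 1956 and 2017 CPM in the control libraries. The knockdown level was 0.650 of the control level (log2 fold change -0.62, SE 0.03, adjusted p = 2.07e-06). Per kilobase PSAP also led the 52 genes, at 455 CPM per kb in the knockdown and 699 CPM per kb in the control. GM2A (ENSG00000196743, chr5:151212150-151270440, + strand), the activator that presents GM2 ganglioside for breakdown, had 92.25, 82.53 and 81.29 CPM in the knockdown libraries and 168.4, 156.4 and 169.4 CPM in the control libraries. The groups were far apart (log2 fold change -0.95, SE 0.06, adjusted p = 1.02e-05), and the difference was -1.10 with GC and length offsets.

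ASAH1, acid ceramidase, had 154.9, 160.6 and 171.6 CPM in the knockdown libraries and 102.0, 107.8 and 95.1 CPM in the control libraries. It was the hydrolase with the largest rise among the 26 (log2 fold change 0.68, SE 0.06, adjusted p = 6.43e-05), and 0.32 with GC and length offsets. SMPD1, acid sphingomyelinase, averaged 33.09 ± 2.78 CPM in the knockdown and 24.63 ± 2.82 CPM in the control (SD, n = 3 each; log2 fold change 0.43, SE 0.11, adjusted p = 0.0271). The offsets gave 0.65 for SMPD1, and its call was lost when any library except control library 3 was left out, at adjusted p between 0.0707 and 0.115. LIPA, the acid lipase of cholesteryl esters, averaged 17.99 ± 0.433 CPM in the knockdown and 28.14 ± 2.96 CPM in the control (SD, n = 3 each; log2 fold change -0.65, SE 0.10, adjusted p = 0.00223). PPT1, which removes palmitate from proteins, had 371.5, 373.2 and 383.0 CPM in the knockdown libraries and 314.3, 367.3 and 363.8 CPM in the control libraries. Its groups did not overlap but were close, and it did not pass (log2 fold change 0.11, SE 0.06, adjusted p = 0.319). PPT1 passed in opposite directions under other settings, at 0.13 (adjusted p = 0.0387) in a fit of the genes averaging 500 counts or more and at -0.13 (adjusted p = 0.00311) with GC and length offsets. Further, 23.4% of its exon bases overlap CAP1 on the other strand, which had a mean of 20720 counts in the knockdown and 7940 counts in the control.

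Summed over all 26 hydrolases and activators, the level was 3923 ± 24.9 CPM in the knockdown and 4889 ± 51.0 CPM in the control (SD, n = 3 each), a ratio of 0.802. PSAP weighed much in this sum, and without it the levels were 2617 ± 30.2 CPM in the knockdown and 2882 ± 47.5 CPM in the control, a ratio of 0.908. Over all 52 genes the sums were 6981 ± 85.3 CPM in the knockdown and 7325 ± 74.0 CPM in the control.

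**Figure D3:**
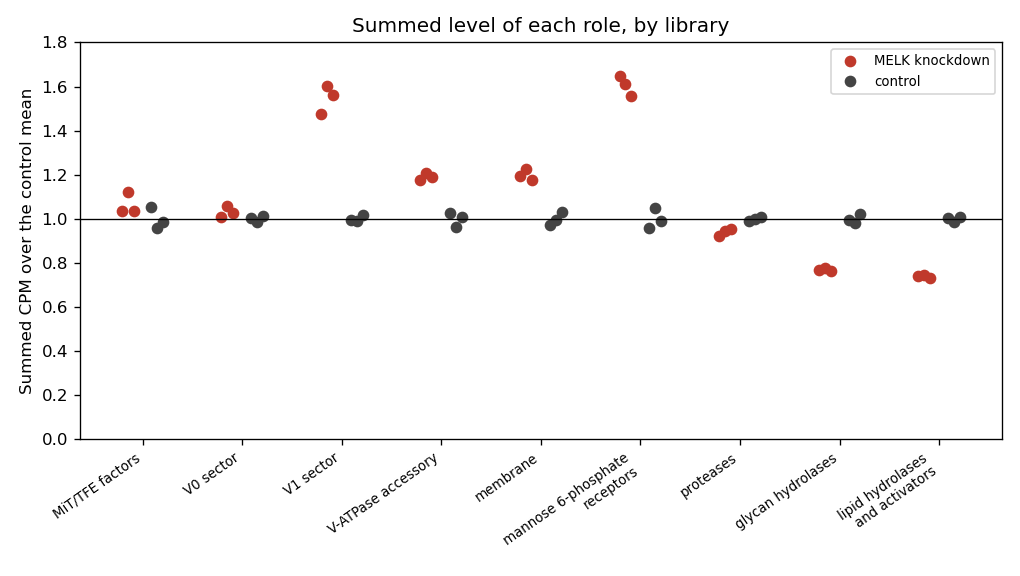
The summed CPM of each role is plotted for each library as a ratio to the control mean, with knockdown libraries in red on the left of each pair and control libraries in grey on the right. The knockdown points of the V1 sector and the mannose 6-phosphate receptors lie well above 1.0, those of the glycan and lipid hydrolases below, and the MiT/TFE points of the groups overlap.

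For the 14 genes with a mean below 500 counts, the added number was modelled as part of each value. In that model 40 of the 52 genes passed (76.9%), against 31.7% of the 28303 genes. ATP6V1D had a log2 fold change of 1.54 (95% interval 1.31 to 1.77) and MANBA of -0.97, the same directions as before. ATP6V1C1, a V1 subunit between head and membrane sector, had 132, 152 and 154 counts in the knockdown libraries and 192, 157 and 81 counts in the control libraries, which overlap. As deposited its log2 fold change was 0.06 (SE 0.35, adjusted p = 1.00), and in the model it was 0.96 (0.69 to 1.22, adjusted p = 4.50e-06). MITF likewise was 1.00 (0.74 to 1.27, adjusted p = 0.0013) in the model. These values rest on how the table was made, which the sources used here do not describe, and on control values that the model reads as holding the number 100. The model also gives every gene the same dispersion (0.00292), estimated from genes averaging 500 counts or more. Its intervals hold no spread particular to a gene and may be too narrow.

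**Figure D4:**
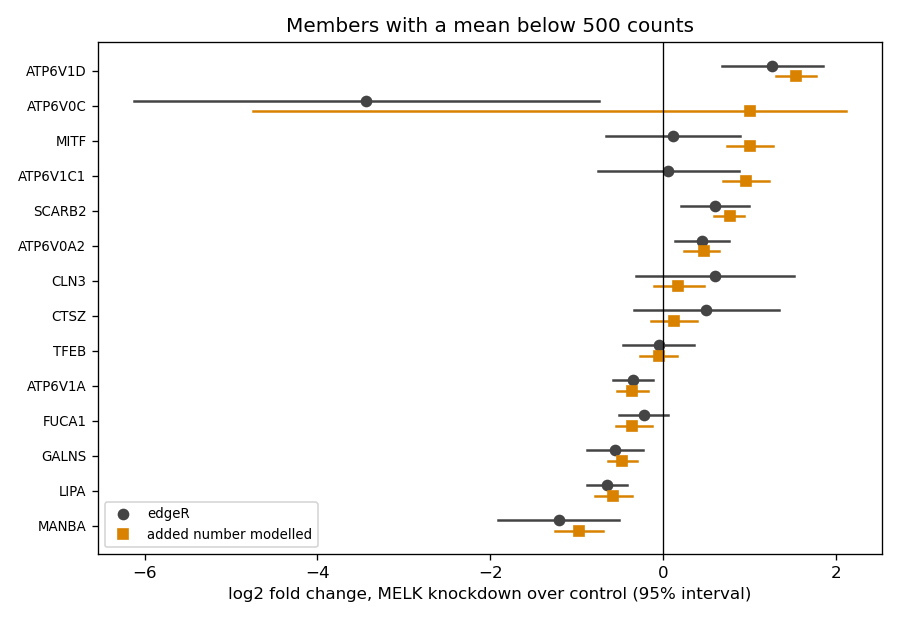
The 14 genes with a mean below 500 counts are drawn with their log2 fold change, MELK knockdown over control, and 95% interval, from edgeR on the deposited counts (grey circles) and from the model of the added number (orange squares). ATP6V0C moves from -3.44 to 1.01, ATP6V1C1 from 0.06 to 0.96 and MITF from 0.11 to 1.00, while TFEB stays near 0.

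Fold changes moved with the base composition of the transcripts across the whole table, and the lysosomal genes shared this. The median GC content was 47.5% for the 19 genes that rose and 53.3% for the 17 that fell, and among all genes averaging 500 counts or more it was 49.1% for those that rose and 57.1% for those that fell. With GC and length offsets 31 of 38 lysosomal genes passed (81.6%), against 76.4% of all 5031 genes with both measures, and 16 rose and 15 fell. Of the 31 that passed as deposited, 29 kept their direction and 28 their direction and call. LAMP2 and CTSC turned and ATP6V1H lost its call. The part of base composition in the other differences was not tested.

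**Figure D5:**
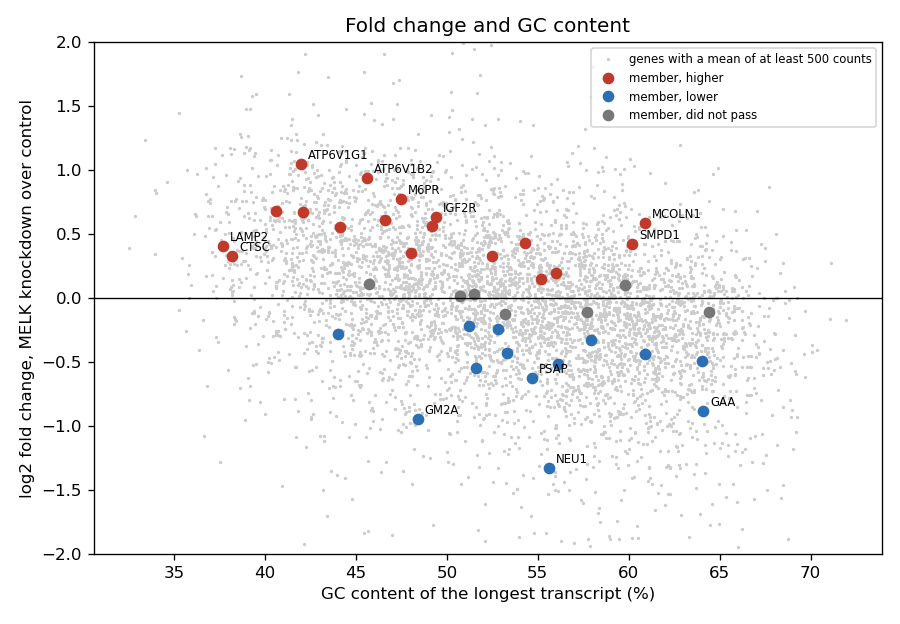
The log2 fold change, MELK knockdown over control (y axis, drawn from -2 to 2), is plotted against the GC content of the longest transcript in percent (x axis) for genes averaging 500 counts or more in light grey and for lysosomal genes in colour. ATP6V1G1, LAMP2 and CTSC lie at low GC content and GAA at high GC content, while GM2A fell at low and MCOLN1 rose at high GC content.

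Other genes of the same pathways were read from lists. Of 20 genes for mannose 6-phosphate tagging and lysosomal sorting 8 rose and 2 fell (8.12% and 8.43% of all genes tested), with a median log2 fold change of 0.25. Of the 14 averaging 500 counts or more 7 rose (32.5% of genes of that depth) and 2 fell (35.5%). SORT1, a sorting receptor for PSAP and other cargo, had a log2 fold change of 0.56 (SE 0.06, adjusted p = 0.000308), GGA3, an adaptor for the tag receptors, of 0.55 (SE 0.04, adjusted p = 2.62e-05), and CLTC, the clathrin heavy chain, of 0.52 (SE 0.10, adjusted p = 0.00903). The adaptor subunits AP3S1 at 0.79 (SE 0.14, adjusted p = 0.00546) and AP1G1 at 0.58 (SE 0.15, adjusted p = 0.0284) rose as well. With GC and length offsets CLTC stood at 0.26, AP3S1 at 0.51 and AP1G1 at 0.31. The genes that fell were GGA1 and GGA2, further adaptors for the tag receptors, at -0.35 (SE 0.04, adjusted p = 0.000499; -0.08 with the offsets, adjusted p = 0.181) and -0.21 (SE 0.05, adjusted p = 0.0159). Of 13 other V-ATPase subunits and assembly factors tested 3 rose (8.12% of all genes tested), among them CCDC115, an assembly factor, at 0.58 (SE 0.04, adjusted p = 1.97e-05). Only 2 of the 13 averaged 500 counts or more, and 1 of these rose (32.5% of genes of that depth), too few to read as a shift of the list.

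Of 35 other hydrolases and cofactors tested 4 rose and 7 fell (8.12% and 8.43% of all genes tested), with a median log2 fold change of 0.00. At a depth of 500 counts or more 4 of 12 rose and 4 fell, where 32.5% and 35.5% of genes did. CTSF, a cysteine protease, averaged 18.71 CPM in the knockdown and 35.55 CPM in the control, and fell by 0.93 on the log2 scale (SE 0.08, adjusted p = 5.51e-05). Of 27 other membrane proteins tested 6 rose and 5 fell (8.12% and 8.43% of all genes tested). Of the 11 at a depth of 500 counts or more 4 rose (32.5% of genes of that depth) and 4 fell (35.5%). NPC1, the cholesterol exporter, averaged 203.8 CPM in the knockdown and 53.91 CPM in the control, and its log2 fold change of 1.92 (SE 0.04, adjusted p = 3.92e-08) was larger than that of any of the 52 genes that rose. CD164, a sialomucin, rose at 1.02 (SE 0.09, adjusted p = 9.06e-05; 0.59 with GC and length offsets) and LAPTM4B, a small transmembrane protein, at 0.94 (SE 0.05, adjusted p = 6.18e-06). TPCN1, a cation channel of endosomes and lysosomes, fell by 1.58 (SE 0.11, adjusted p = 2.12e-05) and LAPTM4A by 0.57 (SE 0.07, adjusted p = 0.000435) on the log2 scale.

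Markers of blood lineages moved between the groups as well. For comparison, 8.12% of all genes tested rose and 8.43% fell, and 32.5% and 35.5% of genes averaging 500 counts or more. Summed megakaryocyte markers ran from 1795 to 1885 CPM in the knockdown and from 2783 to 2911 CPM in the control, with 4 of 12 higher and 5 lower. ITGA2B, at a log2 fold change of -0.93 (SE 0.03, adjusted p = 4.58e-07), made most of that gap, and without it the sums ran from 745.7 to 799.6 CPM in the knockdown and from 805.2 to 823.7 CPM in the control. ITGB3 (-0.70, SE 0.06, adjusted p = 9.21e-05) and GATA1 (-0.56, SE 0.04, adjusted p = 2.07e-05) of the same list fell as well. SRGN (1.17, SE 0.09, adjusted p = 3.28e-05) and FLI1 (0.68, SE 0.08, adjusted p = 0.000489) of that list rose, at 0.73 and 0.45 with GC and length offsets. Summed erythroid markers ran from 665.9 to 677.5 CPM in the knockdown and from 1307 to 1333 CPM in the control, with 6 of 12 lower. Summed mast cell markers ran from 793.5 to 801.4 CPM in the knockdown and from 998.8 to 1040 CPM in the control, with 4 of 9 tested higher and 4 lower. Summed monocyte and macrophage markers, cells rich in lysosomes, ran from 64.05 to 68.86 CPM in the knockdown and from 100 to 107.6 CPM in the control, with 2 of 8 tested higher and 1 lower. The 1 lower was ITGAM (log2 fold change -2.49, SE 0.08, adjusted p = 5.99e-07), and without it the direction turned, from 51.78 to 58.86 CPM in the knockdown and from 38.11 to 42.22 CPM in the control. Of that list MRC1, CCR2, MARCO and MSR1 did not reach the filter on low counts. Epithelial and fibroblast markers summed to between 106.4 and 121.6 CPM in the knockdown and between 80.02 and 88.25 CPM in the control, with KRT18 higher of 10 tested. The part of these lineage differences in the lysosomal results was not tested.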

How the data were processed

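The deposited file is a table of raw gene counts, whole numbers that the authors left unscaled, per the file headers. The submitters' processing notes name STAR, HTSeq, FastQC, fastp, R 4.3.3 and DESeq2 without saying which did what, and give GRCh38 as the build. The sources used here do not give how reads were counted, whether strand was used or which annotation release served. The table was paired with symbols by gene ID for 61803 of 61852 genes. Reads shared between overlapping or near-identical genes are therefore uncertain. Groups and replicate numbers came from the sample titles. The labels call the libraries biological replicates without naming separate cultures, so the p-values cover the spread among these 6 libraries, which may be technical.

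Tests used edgeR 4.0.16 under R 4.3.3 (TMM scaling, filterByExpr with a minimum count of 10, robust quasi-likelihood F-test, no block), with Benjamini-Hochberg adjusted p below 0.05 over all 28303 genes tested. CPM are counts scaled by TMM to a common library size, and CPM per kb divides by the longest transcript (GENCODE release 29). Alternatives were other scalings, filters and dispersions, DESeq2 1.42.0, voom in limma 3.58.1, the replicate number as a block, leaving out each library among the genes kept with all 6, GC and length offsets for genes averaging 500 counts or more, and a model of the added number (negative binomial reads plus 0, 1, 2, 10 or 100, likelihood-ratio test). Scripts were tested on simulated data. That check is not taken as evidence on fits to genes averaging below 500 counts.

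The members and the gene lists were chosen with earlier results of these data known. Values of each library are printed for MELK, the 3 MiT/TFE factors, members that passed with an absolute log2 fold change of at least 0.7 and up to 3 further members of each role with the highest mean count. From the 10 other lists, up to 5 genes that passed and averaged 500 counts or more were named, and some of these are not reported here. Genes named beyond this, such as ATP6V1C1, ATP6V1A and ATP6V0C with their counts, were chosen after their values were seen. Promoters are RefSeq's for GRCh38.p14, and those on chromosome 8 were left out of the search. CTSB, ASAH1, ATP6V1H, ATP6V1C1 and ATP6V1B2 lie on that chromosome and were not searched. MANBA, NAGLU, ATP6V1A, ATP6V0E1, HEXA, PSAP and LAMP2 had no entry.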

Additional observations from a re-analysis of the deposited data

How the results depend on the processing

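The number of the 52 genes that passed stayed between 28 and 40 under 19 alternatives, against 36 as reported, and 26 of the 36 kept their call and direction in every alternative that tested them. Fits limited to genes averaging 500 counts or more tested only 38 of the 52. Of 28303 genes, 4683 passed as reported, 8970 with the added number modelled and 6543 with DESeq2. With GC and length offsets 3844 of 5031 genes passed (76.4%), and as reported 3424 of the 5038 genes of that depth did (68%). Leaving out a library gave 3808 to 4064 genes, 28 to 31 lysosomal genes, 14 to 17 higher and 13 to 16 lower. With library size scaling 23 rose and 14 fell.

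Directions turned in these cases, and the cause was not tested. With GC and length offsets, without or with the replicate block, the log2 fold changes were -0.014 and -0.014 for ATP6V0A1, -0.055 and -0.054 for LAMP2, 0.051 and 0.051 for CTSA, -0.080 and -0.079 for CTSC, 0.200 and 0.196 for NAGLU, -0.127 and -0.125 for PPT1, and -0.063 and -0.064 for TPP1. The added number modelled gave 1.01 for ATP6V0C. TPP1 was -0.001 with upper quartile scaling, and TFEB was 0.021 with library size scaling. With each library left out, TPP1 ran from -0.043 (without knockdown library 3) to 0.060, TFEB from -0.096 to 0.006 (without control library 3), ATP6V1C1 from -0.224 (without control library 3; -0.009 without knockdown library 3) to 0.311, and MITF from -0.140 (without control library 2) to 0.345. MELK passed in 5 alternatives.

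Beside the cases of a left-out library, calls were lost with library size scaling for ATP6V1A (adjusted p = 0.123), HEXA (0.0764) and GALNS (0.055), with relative log expression (0.0518) and upper quartile scaling (0.103) and the added number modelled (0.0762) for LAMP1, with no filter for ATP6V1A (0.373) and MANBA (0.231), and with limma-voom for ATP6V1A (0.0847), GALNS (0.07), MANBA (0.0853) and SMPD1 (0.0568).

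Same-numbered libraries did not deviate together: the correlations of their deviations from the group means were 0.101, -0.0127 and -0.0802, and 2 of 6 libraries correlated best with their own number. The replicate block gave 4182 genes and 34 of the 52 (19 higher, 15 lower), and ATP6V1A (adjusted p = 0.115), LAMP1 (0.0681) and MANBA (0.0751) lost their calls while SCARB2 (0.041) passed.

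Depth limits the 14 genes below a mean of 500 counts, where a single added 100 can outweigh a fold change.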

Other observations

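Of 23 genes for nutrient sensing at the lysosome and control of the MiT/TFE factors, 4 rose and 3 fell (8.12% and 8.43% of all genes tested). Of the 8 averaging 500 counts or more 3 rose and 2 fell (32.5% and 35.5% of genes of that depth). The Ragulator complex, which anchors Rag GTPases to the lysosome, changed in both directions among its subunits. LAMTOR4 had a log2 fold change of -0.60 (SE 0.09, adjusted p = 0.00133; -0.29 with GC and length offsets) and LAMTOR1 of -0.34 (SE 0.04, adjusted p = 0.000632), while LAMTOR5 stood at 0.35 (SE 0.04, adjusted p = 0.000131). FLCN, the folliculin that acts on RRAGC and RRAGD, rose by 0.36 (SE 0.07, adjusted p = 0.00666), and YWHAG, a 14-3-3 protein of the kind that holds phosphorylated TFEB in the cytosol, by 0.54 (SE 0.05, adjusted p = 8.19e-05; 0.33 with the offsets) on the log2 scale. RRAGD, itself a known target of the MiT/TFE factors, was chosen after its values were seen, with a mean of 437.5 counts over the 6 libraries. It fell by 2.36 on the log2 scale (SE 0.11, adjusted p = 2.69e-06).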
